A study of Mus musculus with 4 samples.

Results

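The genes described here are 44 mouse genes of the striated muscle sarcomere, of calcium handling around it and of muscle energy and oxygen supply. They were taken from a list of muscle genes without the myosin heavy chains, and each had to be present in all 4 count files. All 44 were found among the 50488 gene identifiers that the 4 files share. The files came from a mouse study of Cbfb, the partner subunit of the Runx transcription factors, in joint cartilage. The hip control library was from Cbfβf/f mice, taken here as untreated, and its partner from tamoxifen-injected Cbfβf/f;Col2α1-CreERT mice. The methods of the study have Cbfβf/f mice given tamoxifen or corn oil, and its text calls the hip controls wild type. The hip libraries thus differed in Cre as well as in the targeted gene, and may have differed in tamoxifen. The knee libraries were both from Cbfβf/f;Aggrecan-CreERT mice, given oil as the control or tamoxifen. The floxed allele was thus carried by all 4 groups, and Cre recombinase was under a type II collagen promoter in the hip and the aggrecan gene in the knee, both active in chondrocytes. Hip mice were male and given both as 6 weeks and as 2 months old, with tamoxifen at 2 weeks, while knee mice were 12 weeks old, with injections at 6 or 8 weeks depending on the passage of the study. There was 1 library per condition, so each ratio below compares a pair of libraries, with no replicate error and no test.

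In a sarcomere, actin thin filaments slide past myosin thick filaments when calcium binds troponin C and tropomyosin moves off the myosin binding sites. Calcium leaves the sarcoplasmic reticulum through the ryanodine receptor after the surface membrane is depolarised, and SERCA pumps return it. Fast-twitch and slow-twitch fibres build much of this apparatus from paralogous genes, and cartilage has no sarcomeres. Some of the genes, such as Tpm1 and Atp2a2, are also used outside striated muscle.

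The 200 bases upstream of the start of the canonical transcript of 5 of the genes are shown, because these members carried the paralog contrast or the largest differences between libraries. They were read from GRCm39 on the plus strand for all 5, at chr1:135726940-135727139 for Tnni1, chr7:141995345-141995544 for Tnni2, chr9:110592509-110592708 for Myl3, chr9:53757248-53757447 for Sln and chr1:135980059-135980258 for Cacna1s. Capitals mark E-boxes (CANNTG, which reads alike on either strand), MCAT motifs (CATTCC on either strand), and MEF2 and CArG sites.
Tnni1: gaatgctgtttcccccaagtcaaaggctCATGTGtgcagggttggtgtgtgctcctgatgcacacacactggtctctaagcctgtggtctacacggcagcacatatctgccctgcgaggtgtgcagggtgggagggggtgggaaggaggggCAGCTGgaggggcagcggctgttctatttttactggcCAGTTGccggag
Tnni2: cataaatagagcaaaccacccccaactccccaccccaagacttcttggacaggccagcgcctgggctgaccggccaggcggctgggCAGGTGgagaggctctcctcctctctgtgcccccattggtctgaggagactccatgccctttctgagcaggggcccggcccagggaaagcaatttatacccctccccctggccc
Myl3: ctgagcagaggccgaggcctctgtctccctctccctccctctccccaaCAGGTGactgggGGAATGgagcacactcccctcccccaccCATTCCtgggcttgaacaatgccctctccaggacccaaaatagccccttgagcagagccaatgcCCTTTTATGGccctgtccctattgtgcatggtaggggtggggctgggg
Sln: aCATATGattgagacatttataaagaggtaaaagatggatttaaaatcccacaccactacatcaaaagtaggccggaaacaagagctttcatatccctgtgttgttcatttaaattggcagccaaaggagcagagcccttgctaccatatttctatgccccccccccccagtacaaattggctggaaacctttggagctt
Cacna1s: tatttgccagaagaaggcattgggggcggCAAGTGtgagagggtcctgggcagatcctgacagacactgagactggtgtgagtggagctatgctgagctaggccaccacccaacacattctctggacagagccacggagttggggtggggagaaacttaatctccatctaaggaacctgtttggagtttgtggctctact
All 5 windows held an E-box, the core motif that the MyoD family of muscle transcription factors binds. The Tnni1 window also held the form CAGCTG, which is one of the E-boxes, and the Myl3 window held a CArG box, the site of serum response factor, and a pair of MCAT motifs, the site of TEAD factors. Over the 44 members, 35 windows held an E-box (79.5%), against 56.1% of the same window at 21757 protein-coding genes. The form CAGCTG was present in 11 member windows, 25% against 9.76%. MCAT was present in 5 (11.4% against 9.48%), a MEF2 site in 3 (6.82% against 2.06%) and a CArG box in 2 (4.55% against 1.08%). These matches describe letters in a window and not binding.

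Between 34264456 and 38473120 counts fell on genes per library. A count of 3, taken as the floor, was 0.0780 to 0.0876 CPM (counts per 1000000 counts on genes), and every member had at least 10 counts in every library. Where a joint has a pair of values, the control comes first and the library labelled Cbfb-deficient second. Cbfb, the targeted gene, had 2548 counts in the hip control and 2946 in the hip library labelled Cbfb-deficient, and 3796 and 4572 counts in the knee. Its normalised log2 ratios were 0.37 (95% counting interval 0.29 to 0.45) and -0.08 (-0.14 to -0.01), and totals over the whole gene leave exon loss unmeasured. Both directions of Cbfb turned, to -0.30 and 0.01, once the trend of all genes over transcript length and GC content was subtracted. The labels go against one another in tissue, since the extraction notes name osteoblasts and the sample labels name articular cartilage. Of the chondrocyte markers, Col2a1 had 354 and 228 hip counts and 87367 and 33204 knee counts, and Acan, which encodes aggrecan, had 443 and 288 hip counts and 858 and 1387 knee counts. The 12 chondrocyte markers took 0.0333% and 0.0310% of hip counts and 0.485% and 0.365% of knee counts. Of 11 with enough counts in the hip, the interval lay above 0 for 3 and below for 7 (median log2 ratio -0.47). In the knee it lay above 0 for 4 of 12 and below for 8 (-1.08). Above 0 in the hip were Prg4 (3965 and 7644 counts, log2 ratio 1.11), Sox9 (0.74) and Hapln1 (0.99).

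The 44 genes made up 22.1% of hip control counts (95% Clopper-Pearson interval 22.07 to 22.10%) and 18.8% of those in the labelled hip library. In the knee they made up 1.81% of the control and 3.60% of the library labelled Cbfb-deficient. Mitochondrial genes took 6.51% and 7.73% of hip counts and 1.80% and 5.04% of knee counts beside them. The summed share of the members was thus lower in the labelled hip library and higher in the labelled knee library than in their controls. Intervals on shares and ratios cover counting error only. In bulk libraries, fewer muscle fibres and less RNA per fibre cannot be told apart, and neither can the amount of muscle dissected with a joint and a response to the deletion. The 8 skeletal muscle markers, which overlap the members, took 8.94% and 11.1% of hip counts and 0.532% and 1.29% of knee counts.

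Log2 ratios are those of the library labelled Cbfb-deficient over its control, scaled by TMM (trimmed mean of M values) with 0.5 added to each count. A gene was called where its log2 ratio was at least 1 in size and the counting interval left out 0. In the hip pair the median member had a log2 ratio of -0.22, where the median of 19856 genes was -0.02. The interval lay above 0 for 18 members (36.3% of all genes), below 0 for 25 (34.9% of all genes) and across 0 for 1. There were 7 members called higher in the labelled hip library, against 19.6% of all genes, and 10 called lower, against 16.9%. With the trend of all genes over transcript length and GC content subtracted, 7 members were called higher in the hip, against 13.2% of all genes, and 4 lower, against 16%. Of the 7, 6 were also called before, with Trdn lost (2.25 to 0.75) and Tnnc2, whose counts are uncertain, gained (0.47 to 1.06). In the knee pair the median member had a log2 ratio of 0.99, where the median of 21131 genes was 0.01. The interval lay above 0 for 41 members (31.6% of all genes), below 0 for 2 (30% of all genes) and across 0 for 1. The counts above and below the control in each group of genes that follow are read against these shares. There were 22 of 44 members called higher in the labelled knee library, against 8.96% of all genes, and 0 called lower, against 6.92%. With the trend subtracted there were again 22 called higher in the knee, 21 of them called before, against 9.59% of all genes, and 0 called lower, against 5.12%. With the threshold lowered to 1.5-fold in either direction, 27 members were called in the hip (51.8% of all genes) and 34 in the knee (30.2% of all genes).

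**Figure D1:**
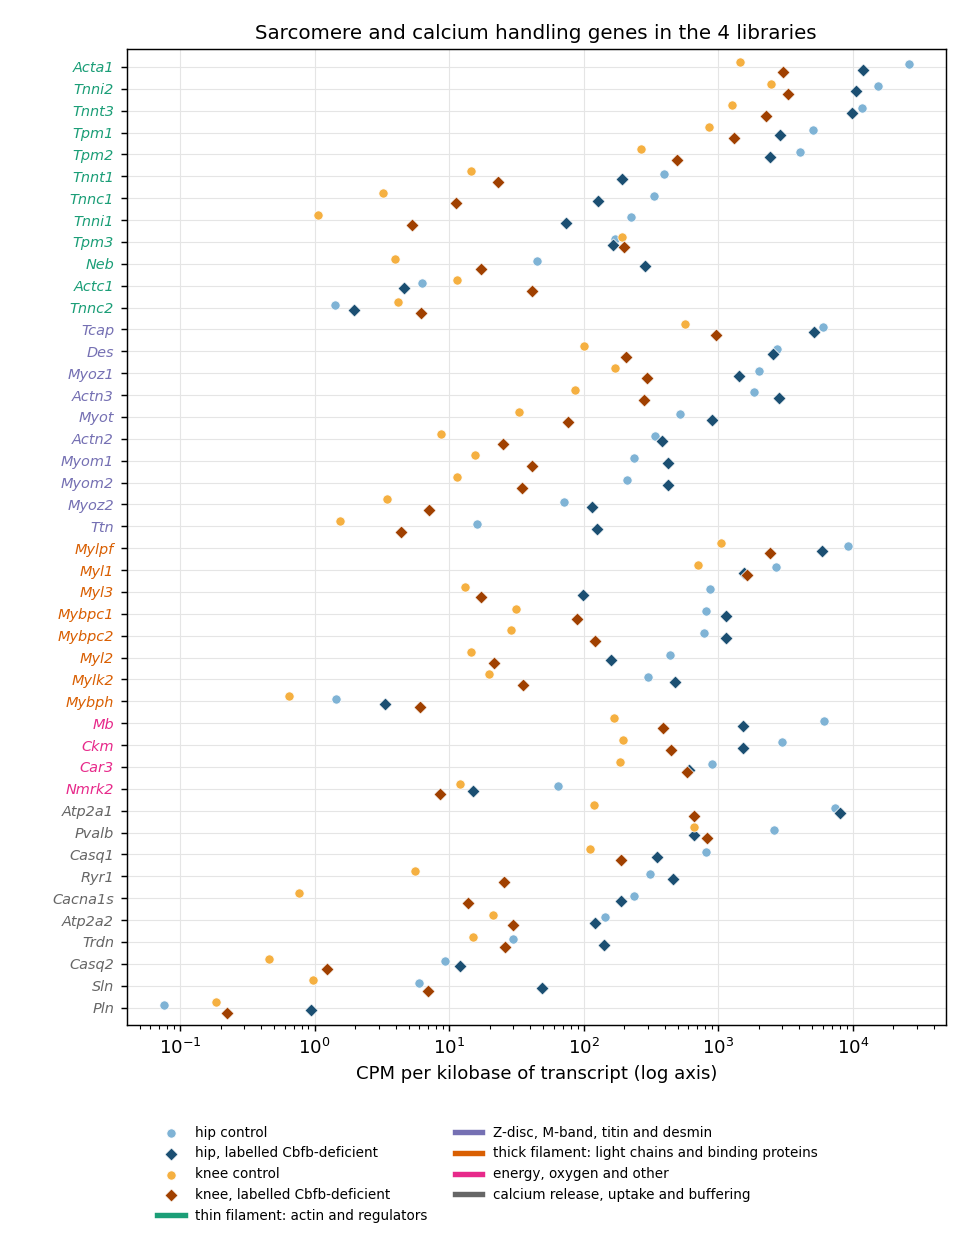
CPM per kilobase of transcript (log axis) of the 44 genes, 1 row per gene grouped and coloured by role, with a circle for each control library and a diamond for each library labelled Cbfb-deficient. The hip libraries sit to the right of the knee libraries for most genes, and the diamonds sit to the right of the circles for nearly all genes in the knee.

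Per kilobase of transcript, Acta1, Tnni2 and Tnnt3 had the highest levels in both hip libraries and in the knee control, and in the labelled knee library Mylpf stood in place of Tnnt3. Acta1 encodes skeletal actin, Tnni2 and Tnnt3 the fast forms of troponin I and troponin T, and Mylpf the fast regulatory light chain of myosin. The most abundant member mRNAs per kilobase were thus skeletal or fast forms in each library. At the other end, Pln had the lowest level in all 4 libraries, from 0.0760 to 0.937 CPM per kilobase.

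The thin filament genes mostly lay below the control in the hip and above it in the knee. Of the 12, 1 lay above and 10 below the control in the hip, with a median log2 ratio of -0.63, and 11 lay above and 1 below in the knee, with a median of 0.68. With the length and GC content trend subtracted, the hip split was 5 above and 7 below, with a median of -0.37, and the knee split did not change. Acta1 (ENSMUSG00000031972) had 1645743 counts in the hip control and 674897 in the labelled hip library, which gave -1.12 on the log2 scale (95% counting interval -1.13 to -1.12). Knee counts of Acta1 were 81310 and 191596, which gave 0.89 (0.88 to 0.90). With the trend subtracted these were -0.53 and 1.05, so that the hip call was lost and a knee call gained. Acta1 alone was 19.4% of member counts in the hip control and 10.4% in the labelled hip library. It was 13.1% and 13.9% of them in the knee libraries. Reads that fit both Acta1 and Actc1, the cardiac actin gene with a closely similar coding sequence, may have been dropped or divided in counting, so Actc1 (874 and 586 counts in the hip, 1427 and 5755 in the knee) is uncertain.

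Troponin is made of a calcium-binding subunit (C), an inhibitory subunit (I) and a tropomyosin-binding subunit (T). Of the slow forms, Tnni1 (ENSMUSG00000026418, chromosome 1 from 135707172 to 135738727) had 9568 counts in the hip control and 2820 in the labelled hip library, and its knee counts were 40 and 223. On the log2 scale this gave -1.60 (95% counting interval -1.66 to -1.54) in the hip and 2.12 (1.64 to 2.66) in the knee, called in opposite directions. Tnnc1, the troponin C of slow and cardiac muscle, had 9199 and 3212 hip counts and 80 and 310 knee counts, with log2 ratios of -1.36 (-1.41 to -1.30) and 1.60 (1.25 to 1.98). The slow troponin T gene Tnnt1 had 16829 and 7271 hip counts and 544 and 971 knee counts, with log2 ratios of -1.05 (-1.09 to -1.01) and 0.49 (0.34 to 0.65). All 3 slow troponin genes were therefore called lower in the labelled hip library, while in the knee each was higher and 2 were called. None of the 3 hip calls held once the trend of all genes over transcript length and GC content was subtracted (Tnnt1 -0.40, Tnni1 -0.91 and Tnnc1 -0.81).

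The fast troponin genes were not called in the hip. Tnni2 (ENSMUSG00000031097, chromosome 7 from 141995545 to 141998147) had 435964 and 265261 hip counts and 61588 and 92584 knee counts, with log2 ratios of -0.55 (95% counting interval -0.56 to -0.55) and 0.24 (0.23 to 0.26). Tnnt3 had 793274 and 599741 hip counts and 76714 and 153139 knee counts, with log2 ratios of -0.24 (-0.25 to -0.24) and 0.65 (0.64 to 0.67). With the same trend subtracted, the hip values turned to 0.03 for Tnni2 and 0.19 for Tnnt3, and the knee value of Tnni2 was 0.62. Tnnc2, the fast troponin C, was listed with only 41 and 51 hip counts and 107 and 179 knee counts. Of its exon bases, 68.7% are shared with the opposite-strand gene Ube2c, which had 321 and 243 hip counts and 10442 and 7883 knee counts, and how counting treated strand is not given in the sources used here. The level of Tnnc2 is therefore uncertain, and its log2 ratios were 0.47 (-0.14 to 1.11) and 0.40 (0.04 to 0.76). With the trend subtracted its hip value was 1.06, past the size of 1 that Tnni1, Tnnc1 and Tnnt1 then no longer reached.

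Nebulin, the giant protein that runs along the thin filament, stood apart from the other thin filament genes in the hip. Neb (ENSMUSG00000026950, chromosome 2 from 52026659 to 52268486) had 40223 counts in the hip control and 229528 in the labelled hip library, and its knee counts were 3193 and 15370. On the log2 scale this gave 2.68 (95% counting interval 2.66 to 2.69) in the hip and 1.92 (1.87 to 1.98) in the knee. It was the only thin filament gene whose interval lay above 0 in the hip pair, and 1 of 5 once the length and GC content trend was subtracted. The tropomyosin genes Tpm1 and Tpm2, which also serve smooth muscle and other cells, had log2 ratios of -0.82 and -0.71 in the hip, and in the knee 0.43 and 0.70. With the length and GC content trend subtracted, the hip values were -0.50 and -0.34. Tpm3, the slow-muscle tropomyosin gene that many other cells use too, had 15123 and 13193 hip counts and 15089 and 17684 knee counts, with log2 ratios of -0.03 (-0.07 to -0.00063) and -0.12 (-0.15 to -0.08). Its counts thus lay close together in all 4 libraries, and besides Nmrk2 it was the only member below the control in both pairs. With the same subtraction its hip value turned to 0.17, which left Nmrk2 alone below in both.

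Among the 8 genes of the thick filament, light chains and binding proteins differed in the hip. The 4 light chains were all lower in the labelled hip library and the other 4 genes, Mylk2, Mybpc1, Mybpc2 and Mybph, were all higher, with a median of -0.07 over the 8 (0.05 with the trend subtracted). In the knee all 8 were higher, with a median of 1.03. Myl3, the essential light chain of slow and cardiac muscle (ENSMUSG00000059741, chromosome 9 from 110570929 to 110599396), had 31399 and 3202 hip counts and 421 and 621 knee counts. Its hip log2 ratio of -3.13 (95% counting interval -3.18 to -3.08) was the lowest of the 44, and its knee log2 ratio was 0.22 (0.04 to 0.40). Myl2, the slow regulatory light chain, had 13878 and 4582 hip counts and 414 and 688 knee counts, with log2 ratios of -1.44 (-1.48 to -1.39) and 0.39 (0.21 to 0.57). Both slow light chains were called lower in the hip and neither was called in the knee, a difference between the joints that was not tested. With the length and GC content trend subtracted, the hip value of Myl2 was -0.99, which ends its call, and that of Myl3 was -2.55.

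The fast regulatory light chain gene Mylpf had 271753 and 155842 hip counts and 27587 and 71371 knee counts, with log2 ratios of -0.64 (95% counting interval -0.65 to -0.63) and 1.03 (1.01 to 1.05). With the length and GC content trend subtracted, its values were -0.19 and 1.36. Myl1, which encodes the fast essential light chains, had log2 ratios of -0.80 and 1.03. Myosin binding protein C sits in stripes along the thick filament, and its slow gene Mybpc1 and fast gene Mybpc2 had log2 ratios of 0.50 and 0.57 in the hip, and in the knee 1.30 and 1.87. The kinase of the regulatory light chain, Mylk2, had log2 ratios of 0.69 and 0.66. Mybph, which encodes myosin binding protein H, had 131 and 269 hip counts and 52 and 545 knee counts, with log2 ratios of 1.20 (0.89 to 1.51) and 3.03 (2.63 to 3.48). Of the exon bases of Mybph, 60.9% are shared with Adora1 on the opposite strand, which had 90 and 33 hip counts and 29 and 105 knee counts.

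The Z-disc anchors the thin filaments, the M-band links the thick filaments and titin reaches from one to the other. Of the 10 genes of this group, 7 lay above and 3 below the control in the hip, with a median log2 ratio of 0.67, and all 10 lay above it in the knee, with a median of 1.13. Ttn (ENSMUSG00000051747, chromosome 2 from 76534136 to 76812891) had 67185 counts in the hip control and 469639 in the labelled hip library, which gave 2.97 on the log2 scale (95% counting interval 2.96 to 2.98). Knee counts of Ttn were 5646 and 18055, which gave 1.33 (1.29 to 1.38). Ttn took 0.791% of member counts in the hip control and 7.23% in the labelled hip library, while in the knee it took 0.909% and 1.31%. The M-band genes Myom1 and Myom2 had log2 ratios of 0.83 and 1.03 in the hip, and in the knee 1.22 and 1.40. The α-actinin genes Actn2 and Actn3, the latter restricted to fast fibres, had 0.18 and 0.64 in the hip, and in the knee 1.34 and 1.50. Below the control in the hip were Tcap (-0.20), which caps titin at the Z-disc, Myoz1 (-0.48), a fast-fibre calsarcin, and Des (-0.10), the intermediate filament protein desmin. With the length and GC content trend subtracted these turned to 0.51, 0.21 and 0.31, while Actn2 turned to -0.07 and Myoz2 from 0.71 to -0.30.

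The calcium genes were the most varied group, with log2 ratios from -1.96 to 3.58 in the hip and from 0.08 to 3.98 in the knee. In the hip 6 of the 10 lay above and 4 below the control, with a median of 0.27 (5 and 5 with the trend subtracted), and in the knee 9 lay above and 1 across 0, with a median of 0.91. Cacna1s, the voltage sensor that starts calcium release (ENSMUSG00000026407, chromosome 1 from 135980259 to 136047560), had 58115 and 41558 hip counts and 166 and 3346 knee counts. On the log2 scale this gave -0.32 (95% counting interval -0.34 to -0.30) in the hip and 3.98 (3.76 to 4.22) in the knee, the highest of the 44 in the knee. Ryr1, the release channel that it opens, had 184716 and 246789 hip counts and 2951 and 15018 knee counts, with log2 ratios of 0.58 (0.57 to 0.59) and 2.0 (1.95 to 2.06). Trdn, the junctional protein triadin, had log2 ratios of 2.25 in the hip, 0.75 with the length and GC content trend subtracted, and 0.60 in the knee. The members of the release complex thus differed in order between the joints, with triadin highest in the hip and the voltage sensor highest in the knee.

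Of the calcium pumps, Atp2a1 encodes the fast-fibre SERCA1 and Atp2a2 the SERCA2 of slow fibres, heart and other cells. Atp2a1 had 1166328 and 1157016 hip counts and 16982 and 103851 knee counts, with log2 ratios of 0.15 and 2.27 (95% counting interval in the knee 2.24 to 2.29). Atp2a2 had 24768 and 18518 hip counts and 3247 and 5101 knee counts, with log2 ratios of -0.26 (-0.28 to -0.23) and 0.31 (0.24 to 0.37). Their small inhibitors were at low levels. Sln, or sarcolipin (ENSMUSG00000042045, chromosome 9 from 53742537 to 53761846), had 304 and 2247 hip counts and 44 and 352 knee counts, with log2 ratios of 3.05 (2.87 to 3.23) and 2.64 (2.20 to 3.14). It was the only member with a log2 ratio above 2 in both pairs. Pln, or phospholamban, had 12 and 133 hip counts and 26 and 35 knee counts, with log2 ratios of 3.58 (2.78 to 4.62) and 0.08 (-0.69 to 0.88), and 43.6% of its exon bases are shared with an opposite-strand transcript. Smaller overlaps of this kind cover 17.6% of the exon bases of Atp2a1 (with Rabep2), 24.6% of Mylpf (with Septin1), 26.8% of Actn3 (with Ctsf), 24.1% of Nmrk2, 26.2% of Atp2a2, 25.98% of Ckm and 18.1% of Mb.

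Of the calcium-binding members, the calsequestrins store calcium in the reticulum and parvalbumin buffers it in the cytoplasm of fast fibres. Casq1, the skeletal form, had 67986 and 26432 hip counts and 8252 and 15798 knee counts, with log2 ratios of -1.20 (95% counting interval -1.22 to -1.18) and 0.59 (0.55 to 0.63). Casq2, the cardiac and slow form, had 1987 and 2321 hip counts and 87 and 260 knee counts, with log2 ratios of 0.39 (0.30 to 0.47) and 1.23 (0.88 to 1.60). With the length and GC content trend subtracted, the hip value of Casq1 was -0.87, which ends its call, and that of Casq2 turned to -0.16. Pvalb had 313177 and 72059 hip counts and 70920 and 98819 knee counts, with log2 ratios of -1.96 (-1.97 to -1.95) and 0.13 (0.12 to 0.15). In the knee control Pvalb was thus among the most counted members, at 11.4% of their counts, against 3.69% in the hip control.

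The 4 genes of energy, oxygen and other supply lay below the control in the hip, all 4 of them, with a median of -1.49, while 3 of 4 lay above it in the knee, with a median of 0.99. Mb, which encodes the oxygen store myoglobin (ENSMUSG00000018893, chromosome 15 from 76899686 to 76940711), had 304543 and 67821 hip counts and 7405 and 18931 knee counts, with log2 ratios of -2.0 (95% counting interval -2.02 to -1.99) and 1.01 (0.97 to 1.05). Nmrk2, a nicotinamide riboside kinase of muscle, had 4592 and 973 hip counts and 764 and 603 knee counts, with log2 ratios of -2.08 (-2.18 to -1.98) and -0.69 (-0.84 to -0.53). It was the only member lower than the control by more than 0.5 on the log2 scale in both pairs. Ckm, the muscle creatine kinase, had log2 ratios of -0.97 and 0.98, and Car3, a carbonic anhydrase of slow fibres and fat, of -0.57 and 1.48. Adipocyte markers moved with Car3 in the knee, where the 6 of them took 0.0659% of control counts and 0.115% of those of the labelled library and all 6 lay above the control. In the hip they took 0.0210% and 0.0355%, with 4 above the control and 2 below, Lep (-4.58) and Plin1 (-1.32). The part of these markers in the result for Car3 was not tested.

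Set side by side, most of the thin filament and energy genes differed in direction between the pairs. There were 17 genes above 0 in both pairs, 2 below 0 in both, 23 below 0 in the hip and above 0 in the knee, and 0 the other way round, with 2 genes, Tnnc2 and Pln, whose interval crossed 0 in a pair. Over the 17594 genes tested in both pairs, the same 4 patterns held 17.4%, 13.4%, 10.6% and 9.98% of genes. With the length and GC content trend subtracted, the 4 patterns held 20, 1, 21 and 1 members. Over 17434 genes they then held 14.2%, 12.2%, 9.87% and 10.2%. Of the genes called in both pairs, 5 were called higher in each (Ttn, Neb, Sln, Mybph and Myom2), and 3 were called lower in the hip and higher in the knee (Tnni1, Tnnc1 and Mb). These patterns held 2.22% and 1.32% of all genes. With the trend subtracted, the 5 stayed called in both pairs, while of the 3 the hip calls of Tnni1 (-0.91) and Tnnc1 (-0.81) ended and that of Mb (-1.31) stayed. Without it, the knee value of Mb, 1.01 (0.97 to 1.05), was the lowest of those called in the knee. With DESeq2 size factors, 21 rather than 22 members were called there. Spearman's rho between the pairs over the 44 genes was 0.35, a description only, since members share their libraries. The pairs differ in joint, age, Cre line and kind of control, which cannot be told apart here.

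**Figure D2:**
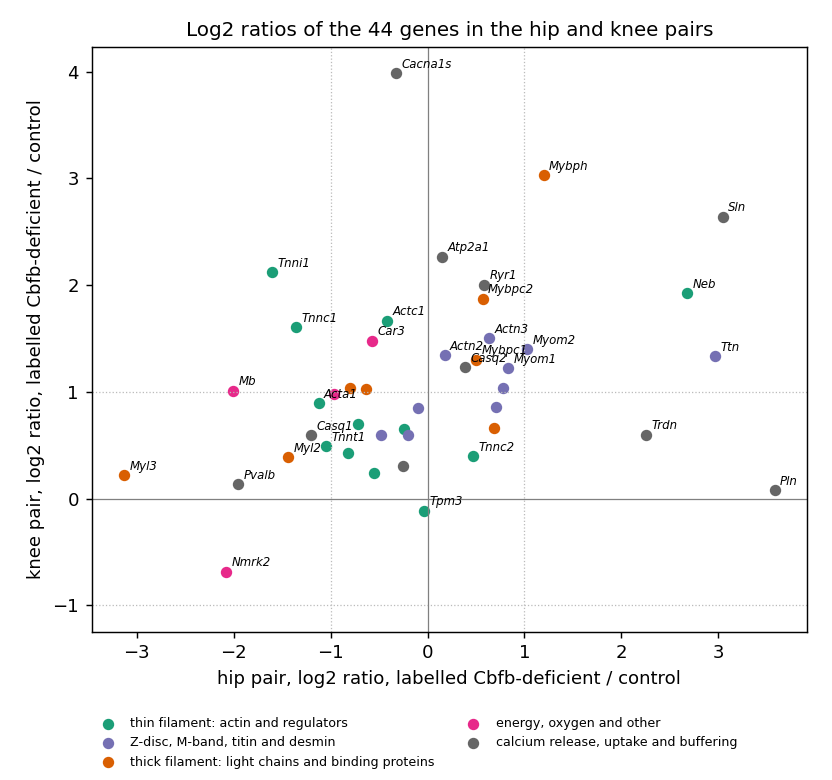
Log2 ratio of each of the 44 genes in the hip pair (horizontal) and in the knee pair (vertical), coloured by role, with dotted lines at a log2 ratio of 1 in either direction. Nearly all points lie above 0 on the vertical axis and they spread to both sides of 0 on the horizontal axis, with Tnni1, Tnnc1 and Mb at the upper left and Sln, Neb and Ttn at the upper right.

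The log2 ratio of members was set against the length of the canonical transcript, which ran from 721 bases for Tnnc1 to 107543 for Ttn. In the hip Spearman's rho was 0.61 over the 44 members, against 0.22 over 19585 genes with a length. Of the 13 members with transcripts up to 1500 bases, 1 (Sln) lay above the control and 11 below, with a median log2 ratio of -0.80, where all genes of that length had -0.37. The 22 members between 1500 and 5000 bases had a median of -0.17, where all genes had -0.06. Of the 9 longer members, 8 lay above the control and 1 (Cacna1s) below, with a median of 0.83, where all genes had 0.48. The members thus followed the direction of all genes over length in the hip, with larger differences in each class.

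In the knee the relation of the members to length was of lower size, with a rho of 0.34 over the 44 against 0.25 over 20829 genes. The medians of the same 3 length classes were 0.60, 0.85 and 1.34 for the members and -0.31, 0.04 and 0.21 for all genes. All 13 short members lay above the control in the knee. With the trend of all genes over length and GC content subtracted, rho was 0.42 in the hip and 0.10 in the knee, a correction that for rho was chosen after the data were seen. After it, hip log2 ratios were 2.17 for Ttn, 1.87 for Neb, 0.75 for Trdn, -0.53 for Acta1, -2.55 for Myl3 and 3.12 for Sln, and that of Cacna1s in the knee was 3.69. The member with the widest move was Trdn in the hip, from 2.25 to 0.75, and Acta1, Tnnt1, Tnni1, Tnnc1, Myl2 and Casq1 no longer reached a size of 1 there. The direction turned for 9 members in the hip, upward for Tnnt3, Tnni2, Tpm3, Tcap, Myoz1 and Des and downward for Actn2, Myoz2 and Casq2, and for 0 members in the knee. GC content had a rho of -0.33 with the log2 ratio of members in the hip, against -0.38 over all genes, and of 0.04 in the knee.

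**Figure D3:**
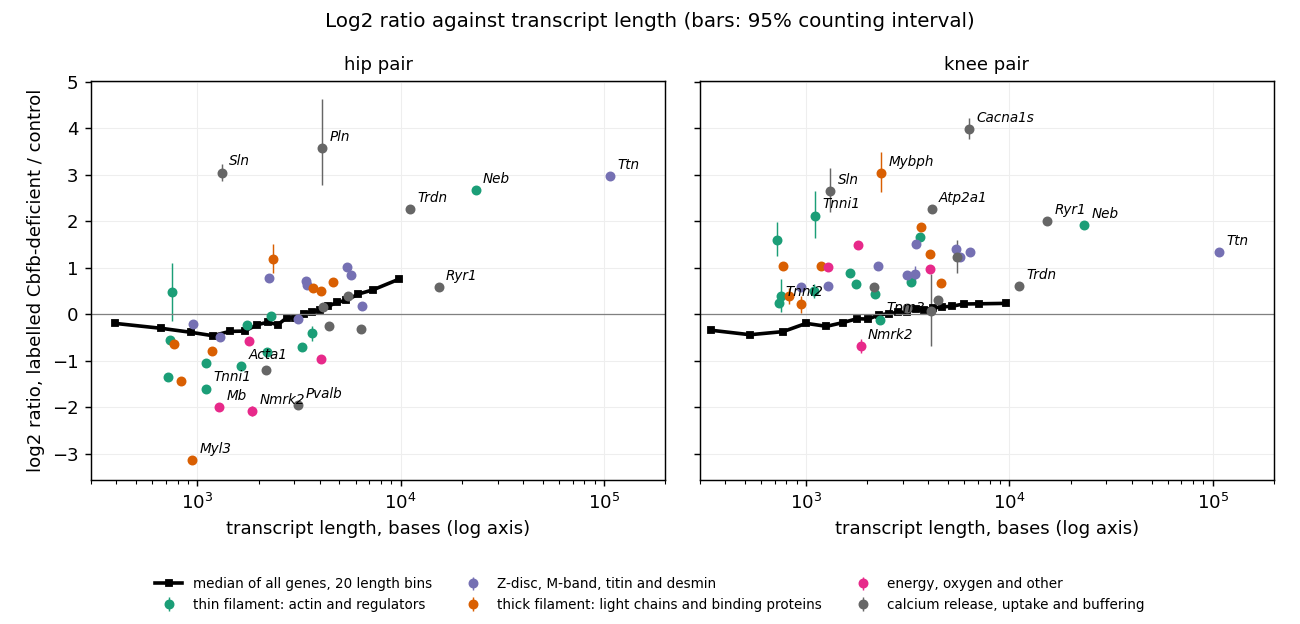
Log2 ratio of the library labelled Cbfb-deficient over control against transcript length (log axis) for the hip and knee pairs, with 1 point per member coloured by role, bars for the 95% counting interval and a black line for the median of all genes in 20 length bins. In the hip, longer members tend to lie higher, with Ttn, the longest, at 2.97 and Myl3 lowest at -3.13. The shorter Sln (3.05) and Pln (3.58) lie above Ttn. In the knee nearly all points lie above the black line.

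Fast forms were set against their slow paralogs as a ratio of counts per base within each library, so that no scaling between libraries enters. In the hip control the log2 ratio of fast over slow was 4.89 for Tnnt3/Tnnt1, 6.10 for Tnni2/Tnni1, 5.66 for Atp2a1/Atp2a2, 6.45 for Casq1/Casq2 and 4.40 for Mylpf/Myl2. Fast forms thus exceeded slow forms in all 5 pairs of genes, from 21.2-fold for the regulatory light chains to 87.4-fold for the calsequestrins. In the labelled hip library the same ratios were 5.69, 7.15, 6.07, 4.86 and 5.20. The shift was toward the fast form in 4 of the 5, by 0.81 (95% counting interval 0.77 to 0.85), 1.05 (0.98 to 1.11), 0.41 (0.38 to 0.44) and 0.80 (0.75 to 0.85) in the order of the troponins T and I, the pumps and the light chains. The calsequestrins shifted toward the cardiac and slow form, by -1.59 (-1.68 to -1.50), and the median shift was 0.80. Casq2 has the longer transcript of that pair, 5530 against 2164 bases, and once the trend over length and GC content was subtracted the shift was -0.71.

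In the knee control the ratios were 6.47 for Tnnt3/Tnnt1, 11.16 for Tnni2/Tnni1, 2.49 for Atp2a1/Atp2a2, 7.91 for Casq1/Casq2 and 6.17 for Mylpf/Myl2. The ratio for troponin I rests on 40 counts of Tnni1 and its interval ran from 10.74 to 11.67. The low ratio of the pumps stands beside a slow member, Atp2a2, that many other cells use. In the labelled knee library the ratios were 6.63, 9.29, 4.45, 7.28 and 6.81. The pumps shifted toward the fast form by 1.96 (95% counting interval 1.89 to 2.03), the light chains by 0.64 (0.46 to 0.82) and troponin T by 0.16 (0.01 to 0.31). Troponin I and the calsequestrins shifted toward the slow form, by -1.88 (-2.36 to -1.39) and -0.64 (-0.99 to -0.28), so that 3 pairs moved one way and 2 the other, with a median shift of 0.16. Without the pumps the median was -0.24.

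In 5 further paralog pairs, 1 member was set as fast and the other as slow for this comparison, without a claim that each is confined to those fibres. With them, 8 of 10 pairs shifted toward the member set as fast in the hip and 6 of 10 in the knee. Myl1/Myl3 had the largest hip shift, 2.33, with a ratio of 1.64 in the control and 3.98 in the labelled library. Myoz1/Myoz2 shifted by -1.19 in the hip and was the pair that turned direction with the length and GC trend removed, to 0.52. Actn3/Actn2 shifted by 0.46 in the hip and 0.16 in the knee, and Mybpc2/Mybpc1 by 0.07 and 0.57. With the same trend removed, these were 1.05 and 0.27 for Actn3/Actn2 and 0.56 and 0.55 for Mybpc2/Mybpc1. Tnnc2/Tnnc1 rests on the uncertain counts of Tnnc2, with shifts of 1.83 and -1.21.

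**Figure D4:**
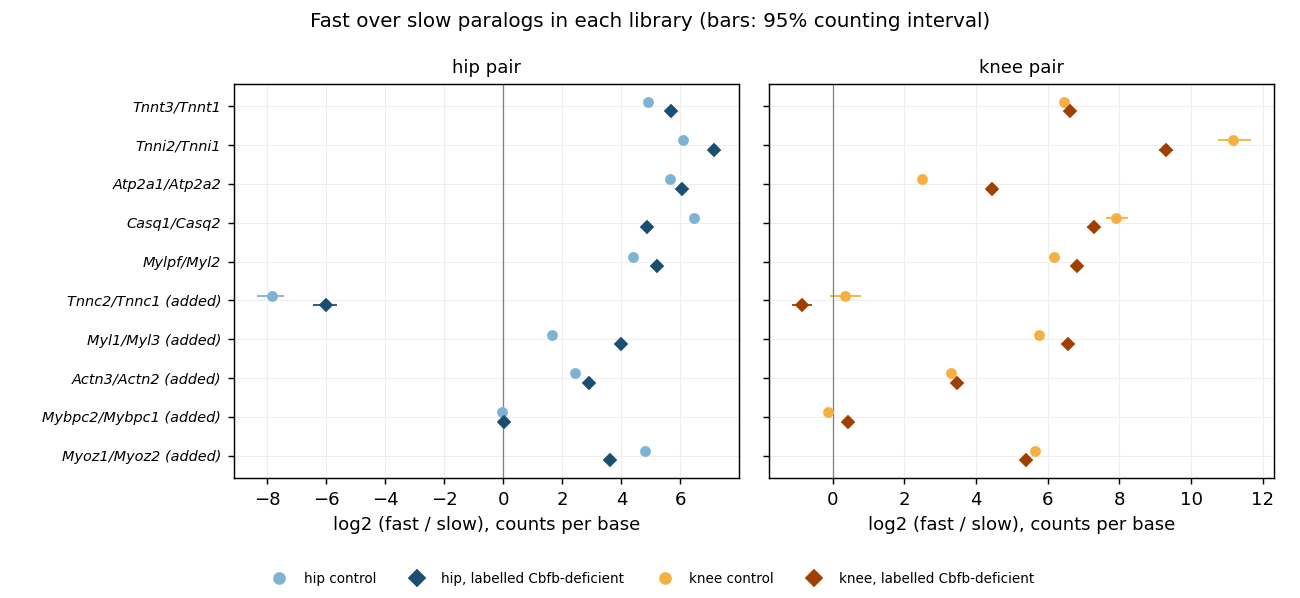
Log2 ratio of fast over slow paralog in counts per base for 10 gene pairs, in the hip libraries (left) and the knee libraries (right), with circles for controls, diamonds for libraries labelled Cbfb-deficient and bars for the 95% counting interval. In the hip the diamonds lie to the right of the circles except for Casq1/Casq2 and Myoz1/Myoz2, and in the knee Tnni2/Tnni1 and Atp2a1/Atp2a2 shift the most, in opposite directions.

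The myosin heavy chains, which were not members, gave a second reading of fast and slow fibres. Of the fast genes, Myh4 (type IIb) had hip and knee log2 ratios of 1.24 and 1.07, Myh1 (type IIx) of 0.93 and 2.29 and Myh2 (type IIa) of 0.84 and 2.22. Myh7, the slow heavy chain, had 18021 and 21814 hip counts and 8 and 229 knee counts, with log2 ratios of 0.44 (95% counting interval 0.41 to 0.47) and 4.41 (3.49 to 5.72). In the hip Myh7 thus lay above its control while the slow light chains Myl2 and Myl3 and the slow troponins lay below theirs. In the knee Myh7 and Tnni1 both lay above.

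Other genes of the same pathways were counted in the same way. Of 15 further excitation-contraction coupling genes, 6 lay above and 8 below the control in the hip (median log2 ratio -0.10), and 12 above and 2 below in the knee (0.80). The most counted of them, Tmem38a, Srl and Jph2, had hip log2 ratios of -0.24, -0.10 and -0.65 and knee log2 ratios of 1.20, 1.87 and 1.30. Of 28 further genes of the Z-disc, thin filament and M-band, 17 lay above and 8 below in the hip (0.22) and 26 above and 1 below in the knee (1.13). Among them, Nrap, an assembly scaffold, had log2 ratios of 0.61 and 2.02. Of 11 genes of sarcomere assembly and turnover, 6 lay above and 3 below in the hip (0.43) and all 11 above in the knee (0.97). Of 16 further energy supply genes, 1 lay above and 15 below in the hip (-0.86) and 13 above and 1 below in the knee (0.48). The most counted of these, Pygm, Eno3 and Pfkm, of glycogen breakdown and glycolysis, had hip values of -0.26, -0.90 and -0.57 and knee values of 1.12, 0.75 and 0.83. Ldha and Pgam2, of the same list, had -1.09 and -1.82 in the hip. Their knee values were -0.03 and -0.0019, or 0.17 and 0.34 with the length and GC content trend subtracted. With the trend subtracted, the hip splits were 7 above and 6 below, 17 and 10, 7 and 4, and 2 and 14 in the order of these lists, with medians of 0.02, 0.28, 0.11 and -0.40. Among the genes named, Tmem38a and Pygm then turned to 0.22 and 0.12 in the hip, and Srl lay at -0.75.

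Markers of other cell types were read beside these results, and their part in them was not tested. The 7 cardiac markers, of interest for Actc1, Tnnc1, Myl2, Myl3, Casq2 and Pln, took 0.0138% and 0.0137% of hip counts and 0.00353% and 0.00177% of knee counts. Among them the atrial markers Myl7 and Nppa had between 0 and 2 counts in every library. Myh6, the α-myosin heavy chain of the heart, had 4607 and 4044 hip counts, most of the hip total of this list, and 4 and 9 knee counts. Myl4, the atrial essential light chain, had 431 and 275 hip counts and 1072 and 549 knee counts. Satellite cell and neuromuscular junction markers took at most 0.0100% of counts, with 4 of 6 above the control in the hip and 3 of 6 in the knee. The 7 smooth muscle markers took 0.0292% and 0.0174% of hip counts and 0.0115% and 0.0160% of knee counts, with 1 above and 4 below the control in the hip and 2 above and 0 below in the knee. The 6 erythroid markers took 0.579% and 0.218% of hip counts and 9.84% and 4.79% of knee counts, with 6 of 6 below the control in the hip and 5 of 6 in the knee. The 8 osteoblast and osteocyte markers took 0.0866% and 0.0202% of hip counts and 1.18% and 0.677% of knee counts. Of these, 1 lay above and 5 below the control in the hip, and 2 above and 6 below in the knee. The 5 osteoclast markers took 0.00658% and 0.00525% of hip counts and 0.337% and 0.188% of knee counts. Among them 1 lay above and 3 below in the hip, and 0 above and 5 below in the knee. The 5 tendon markers took 0.0463% and 0.0116% of hip counts and 0.0340% and 0.0424% of knee counts. Blood and bone markers thus took a lower summed share in both labelled libraries, though not every marker was lower. The member share was lower in the hip and higher in the knee.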

How the data were processed

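Poly-A RNA of hip and knee joints was sequenced in 4 libraries, 1 per condition. The authors deposited whole-number read counts per Ensembl gene, without normalization. The submitters' processing notes name STAR 2.0, FastQC 0.11.3 and the build mm10, whereas the methods of the study name GRCm39. The hip values end in 5 summary lines of a counting program (25.8% and 24.6% of the reads listed, of which ambiguous reads 7.4% and 5.96% of the total), and these were left out. The counting settings are not given in the sources used here.

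Symbols, transcript lengths and GC content came from GENCODE mouse M39 on GRCm39, which matched 91.8% of hip and 92.6% of knee identifiers. Promoter windows were read from GRCm39. Counts were scaled within each pair by TMM in edgeR 4.0.16 (R 4.3.3) over genes with at least 10 counts, and 0.5 was added to each count. DESeq2 1.42.0 size factors were an alternative. Intervals are 95% Clopper-Pearson intervals of the split of counts, or for paralog shifts Wald intervals from the reciprocals of the 4 counts. Other steps used Python 3.11.15, numpy 2.4.6, pandas 2.3.3, scipy 1.17.1 and matplotlib 3.10.9. The log2 ratios with their intervals, the calls and the trend subtraction were tested on simulated counts, and the other steps were not.

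Values were given in full for the 10 genes of the 5 paralog pairs, the 3 members with the highest counts per kilobase in each library, the 4 highest and 4 lowest log2 ratios of each pair among members with at least 100 counts (in the knee, 2 of the 4 lowest lay above 0), and members called in opposite directions. Beyond this rule, further members were given by their log2 ratios, and counts of Actc1 and Ryr1, among others, were added after their values were seen. The 44 members, the 4 lists of other muscle genes, the 10 cell type marker lists and the 5 added paralog pairs were chosen with earlier results of these data known. The length and GC trend was the median log2 ratio of 20 bins of length and then of GC content, subtracted in 2 rounds.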

Additional observations from a re-analysis of the deposited data

Results flagged for a closer look

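For 3 genes the hip and knee pairs were called in opposite directions, which drew attention to them. The knee log2 ratio minus the hip log2 ratio was 3.72 for Tnni1, 2.96 for Tnnc1 and 3.01 for Mb. With 1 library per condition the difference between the joints was not tested. With the trend of all genes over transcript length and GC content subtracted, the hip log2 ratios of Tnni1 (-0.91) and Tnnc1 (-0.81) no longer reached a size of 1, while Mb had -1.31 in the hip and 1.22 in the knee. Without that subtraction the knee value of Mb, 1.01 (0.97 to 1.05), lay close to the size of 1.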

How the results depend on the processing

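With 1 library per condition, leaving out a replicate was not possible, and counting intervals do not hold the spread between animals. No paired analysis was possible because no condition had more than 1 library. Once the trend over length and GC content was subtracted, the hip pair had 11 members called, 4 of them lower, and a median of -0.0181, the median shift toward fast forms was 0.61 in the hip and, from 0.16, 0.04 in the knee, and Spearman's correlation with length was 0.42 in the hip and 0.10 in the knee (for this correlation, chosen after seeing the data). The same subtraction turned the direction of 9 members in the hip. A threshold of 1.5-fold gave 27 hip calls, 12 of them higher, and 34 knee calls, 1 of them lower. TMM over all genes, chosen after seeing the data, gave a hip median of -0.19, and library size alone a knee median of 1.18. With the union of exons as length, Spearman's correlation was 0.22 in the knee. The median shift toward fast forms was 0.63 over 10 gene pairs in the hip, and without Atp2a1/Atp2a2 it turned to -0.24 in the knee. Without mitochondrial counts the member share was 23.6% and 20.4% of hip counts and 1.85% and 3.79% of knee counts. Where these values moved, the cause was not tested beyond the change of setting. The other recomputed counts lay within 1.5 times those reported, and the other medians, correlations and shares kept their direction.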
